A study of Mus musculus with 6 samples.

Results

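Described here are 10 genes of the AP-1 and immediate early group in mouse B cells, *Fos*, *Fosb*, *Jun*, *Junb*, *Jund*, *Batf*, *Egr1*, *Egr2*, *Egr3* and *Nr4a1*. They were chosen by name, as the FOS, JUN, EGR, NR4A and BATF genes of that list, out of 24499 genes in the deposited count table. All 10 were among the 13296 genes with enough counts to be tested. RNA-seq was performed on iGCBs, in vitro germinal center B cells, from 3 cKO and 3 control mice. Naive B cells from the spleen spent 3 days on irradiated (120 Gy) 40LB feeders, fibroblasts derived from BALB/c 3T3 that carry CD40L and BAFF, in medium with IL-4 (1 ng/ml), after which YFP+ cells were sorted. cKO mice were Eif3e fl/fl, Cγ1Cre and Rosa26-YFP LSL, and all mice of the study were on C57BL/6J. The labels of the RNA-seq samples call the other group control, with library names that begin with d3_cgWT, and do not spell out its genotype. Control cells were also sorted as YFP+, and this reporter tracks Cre activity. Controls elsewhere in the study were of several genotypes, among them Cγ1Cre with Rosa26-YFP LSL. Cγ1Cre is switched on when the γ1 heavy chain constant region is transcribed, so deletion and YFP begin only after the B cells are activated, and the ages and sexes of the mice are not in the labels.

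AP-1 is a family of dimers of basic leucine zipper (bZIP) proteins. FOS proteins cannot pair with each other and bind DNA as partners of JUN proteins, whereas JUN proteins can also pair among themselves, and BATF pairs with JUN proteins and binds beside IRF4 or IRF8 in lymphocytes. *Fos*, *Egr1* to *Egr3* and *Nr4a1* are immediate early genes, which are transcribed within minutes of antigen receptor or growth factor signaling, without new protein synthesis, and whose mRNAs are short-lived. The EGR proteins are zinc finger factors and NR4A1 (Nur77) is an orphan nuclear receptor widely used as a reporter of B cell receptor signaling.

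*Eif3e*, the targeted gene, had 173, 150 and 152 CPM (counts scaled to a common library size by TMM) in cKO replicates 1, 2 and 3, where controls had 424, 401 and 392 CPM, so that 39.0% of the control level remained. Libraries held 39079582 to 45504570 counts, and log2 CPM across genes correlated at 0.977 to 0.982 within groups and at 0.953 to 0.961 between groups. *Cd79a* (means of 764 CPM in cKO and 989 CPM in control) marked B cells in all libraries, and *Fas* and *Bcl6* were present. *Xist* split the libraries, with 53272 to 70912 counts in 1 cKO and 2 control libraries and 0 to 16 counts in the other 3. Differences are therefore also given within each *Xist* class. Nothing in the labels pairs cKO with control mice. The paper did use paired tests for proliferation, death and surface proteins of control and cKO iGCBs.

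*Fos* and *Jun* were higher and *Egr3* was lower in cKO iGCBs, and the other 7 genes did not pass the cutoffs. A gene was called where edgeR's quasi-likelihood test, with Benjamini-Hochberg adjustment over all tested genes, gave an adjusted p below 0.05 and the fold change exceeded 1.5. These cutoffs called 3 of the 10 genes, while they called 21.0% of all tested genes, 10.4% as higher and 10.6% as lower. By adjusted p alone, 3 were higher (*Fos*, *Jun* and *Batf*) and 3 were lower (*Jund*, *Egr1* and *Egr3*), against 24.1% higher and 24.5% lower (48.6% in all) among all tested genes. For 5 of the 10 the groups did not overlap, and in 3 of these the cKO libraries were the higher ones, against 58.7% and 29.2% of all tested genes. The median log2 fold change of the 10 was 0.21, and that of all tested genes was −0.0040 with quartiles of −0.35 and 0.35. The calls thus went in both directions and made up little more of the 10 genes than of all tested genes.

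**Figure D1:**
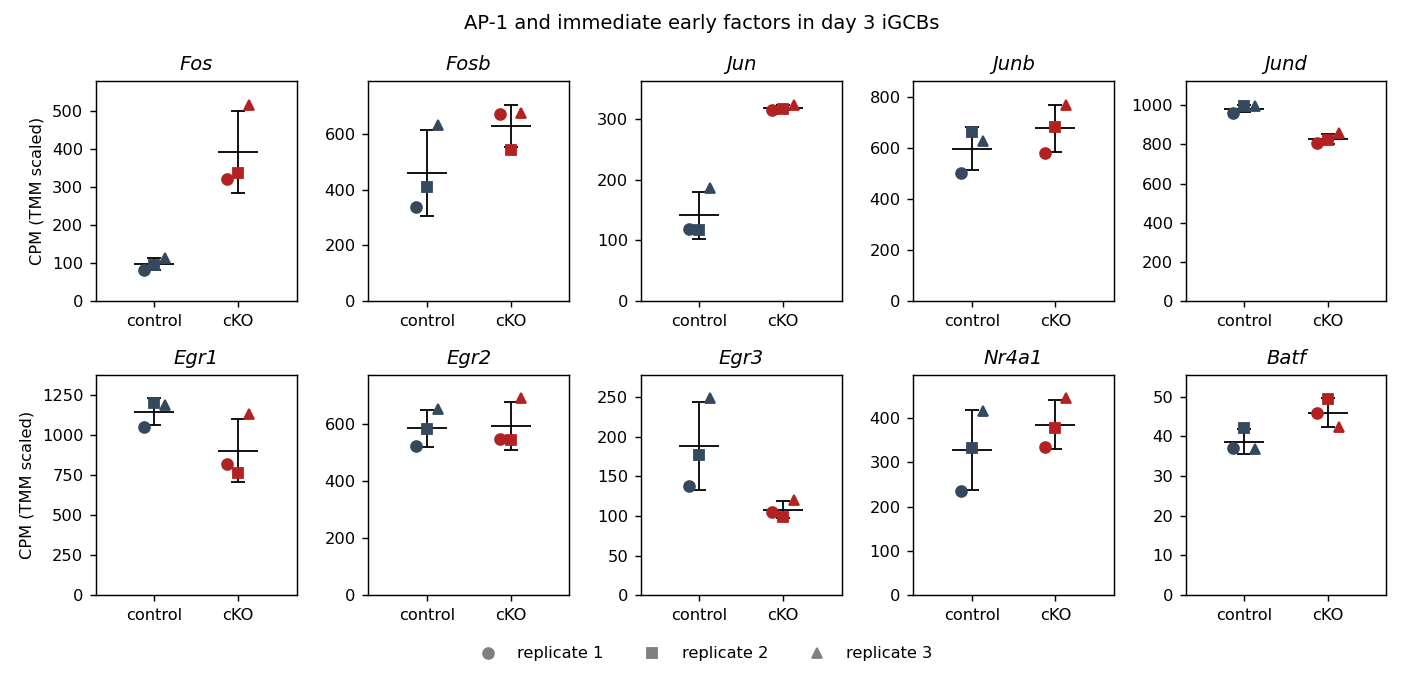
Level of each gene in every library, in CPM on a linear axis from 0, for 3 control (dark) and 3 cKO (red) mice. Symbols mark the replicate, the long bar is the mean and the whiskers are the SD. The 3 cKO libraries lie above all control libraries for *Fos*, *Jun* and *Batf* and below them for *Jund* and *Egr3*.

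Within the FOS family, *Fos* rose in cKO iGCBs while the levels of *Fosb* overlapped. *Fos* encodes the prototype partner of JUN proteins. It had 323, 338 and 518 CPM in cKO replicates 1, 2 and 3 and 82.6, 95.1 and 115 CPM in control replicates 1, 2 and 3. The lowest cKO library was above the highest control library, and replicate 3 was the highest in both groups. The means of 393 ± 109 and 97.5 ± 16.3 CPM (SD, n = 3 each) differed 4.03-fold, or by 2.01 as a log2 fold change (standard error, SE, 0.177; adjusted p = 1.26e-05). The unadjusted 95% interval of that log2 fold change was 1.62 to 2.41. It was 1.93 between libraries with *Xist* and 1.83 between libraries without it, and it ranged from 1.76 to 2.15 when each library was left out in turn. *Fos* also passed a test that the change itself exceeded 1.5-fold (adjusted p = 0.000166).

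*Fosb*, which encodes a second FOS partner and its truncated form ΔFosB, stood at 671, 542 and 673 CPM in cKO and at 336, 411 and 631 CPM in control replicates 1 to 3. Control replicate 3 lay within the cKO range, and the other control libraries lay below it. For *Fosb* the log2 fold change was 0.45 (SE 0.189, adjusted p = 0.0709, 95% interval 0.033 to 0.87). Without control replicate 3 it was 0.76 with an adjusted p of 0.000426, which passes both cutoffs, so that this library decided the call. It was 0.54 between libraries with *Xist* and 0.091 between those without.

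Within the JUN family, *Jun* rose, *Jund* fell slightly and *Junb* overlapped between the groups. *Jun*, the main transactivating JUN gene, had 315, 316 and 323 CPM in the cKO libraries. It had 119, 118 and 186 CPM in the control libraries. The cKO libraries were almost equal and all lay above control replicate 3, the highest control. The means were 318 ± 4.41 and 141 ± 38.9 CPM (SD, n = 3 each), a 2.25-fold difference (log2 fold change 1.17, SE 0.148, adjusted p = 0.000116, 95% interval 0.843 to 1.502). The difference was 1.41 on the log2 scale between libraries with *Xist* and 0.78 between those without, and it stayed between 1.05 and 1.42 with each library left out. *Jun* passed the test against 1.5-fold (adjusted p = 0.00558).

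*Junb*, whose product is a weaker activator that can oppose JUN, had 582, 683 and 767 CPM in cKO and 502, 664 and 627 CPM in control libraries. cKO replicate 1 lay within the control range and the groups overlapped. For *Junb* the log2 fold change was 0.18 (SE 0.113, adjusted p = 0.218), with a 95% interval of −0.072 to 0.43. That value ran from 0.070 without control replicate 1 to 0.28 without cKO replicate 1. *Jund*, the JUN gene known for steady expression in resting cells, stood at 806, 821 and 858 CPM in cKO and at 960, 994 and 994 CPM in control libraries. All cKO libraries were below all control libraries and the replicates of each group were close together. This was a log2 fold change of −0.25 (SE 0.0428, adjusted p = 0.000891), a decrease under 1.5-fold that remained between −0.27 and −0.23 with each library left out.

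*Batf*, which is required for class switching in B cells, had the lowest CPM of the 10, not corrected for length, with 46.0, 49.5 and 42.3 CPM in cKO and 37.2, 42.2 and 36.7 CPM in control libraries. The groups touched but did not overlap, since cKO replicate 3 and control replicate 2 were almost equal. *Batf* differed by a log2 fold change of 0.25 (SE 0.0888, adjusted p = 0.0407), under 1.5-fold, and the adjusted p was above 0.05 with the fibroblast covariate and without cKO replicate 1, cKO replicate 2, control replicate 1 or control replicate 3, with a maximum of 0.133. Exons of *Jun*, *Junb* and *Jund* overlap genes on the opposite strand, *Junos* by 232, *Prdx2* by 173 and *Gm11175* by 877 bases, and without a known strand setting their reads cannot be separated. In single-value exact two-sided permutation tests of the CPM, p was 0.1 for *Fos*, *Jun*, *Jund*, *Batf* and *Egr3*, which is the smallest p that 3 against 3 libraries can give.

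Of the EGR genes, *Egr3* fell, *Egr1* overlapped between the groups with a lower mean in cKO, and *Egr2* had nearly equal means. *Egr3*, which limits lymphocyte activation together with *Egr2*, had 105, 98.7 and 120 CPM in the cKO libraries. It had 139, 177 and 249 CPM in the control libraries. All cKO libraries were below all control libraries, and the spread was wider among controls, with replicate 3 the highest. The means were 108 ± 10.7 and 188 ± 55.8 CPM (SD, n = 3 each), with a log2 fold change of −0.80 (SE 0.171, adjusted p = 0.00308, 95% interval −1.18 to −0.42). *Egr3* rested partly on control replicate 3, without which the log2 fold change was −0.55 (adjusted p = 0.00259) and no longer passed the 1.5-fold cutoff. It did not pass the test against 1.5-fold (adjusted p = 0.262). The difference in *Egr3* was −0.67 between libraries with *Xist* and −1.15 between those without.

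*Egr1* had 818, 761 and 1129 CPM in cKO and 1052, 1201 and 1187 CPM in control libraries. cKO replicate 3 lay within the control range and the other cKO libraries lay below it. For *Egr1* the log2 fold change was −0.35 (SE 0.124, adjusted p = 0.0417), and the adjusted p ranged from 0.000256 to 0.159 over 15 alternative fits. It was above 0.05 with DESeq2 (0.152), with total counts only (0.0529), with no filter on low counts (0.0597) and with any library other than cKO replicate 3 left out. *Egr2* had 548, 544 and 690 CPM in cKO and 523, 581 and 652 CPM in control libraries, so that most of the libraries of each group lay within the range of the other. Its log2 fold change was 0.02 (SE 0.102, adjusted p = 0.888), and the 95% interval of −0.21 to 0.25 contains no 1.5-fold change.

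*Nr4a1* had 335, 377 and 445 CPM in cKO and 236, 333 and 417 CPM in control libraries. The groups overlapped, with replicate 1 the lowest and replicate 3 the highest in each. For *Nr4a1* the log2 fold change was 0.23 (SE 0.172, adjusted p = 0.302), with a 95% interval of −0.15 to 0.61 that reaches past 1.5-fold. With 1 library left out it ran from 0.039 without control replicate 1 to 0.44 without control replicate 3 (adjusted p = 0.0303). The *Nr4a1* difference was 0.43 between libraries with *Xist* and −0.11 between those without.

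**Figure D2:**
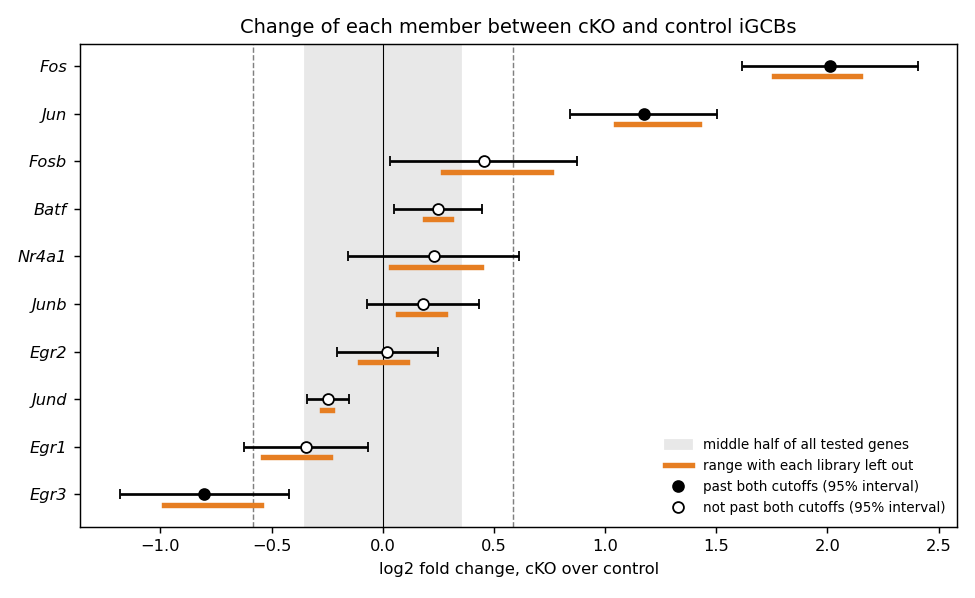
Log2 fold change of cKO over control for each gene (points) with its unadjusted 95% interval, filled where both cutoffs were passed, and the range with each library left out in turn (orange). Dashed lines mark 1.5-fold and the grey band spans the quartiles of all tested genes, −0.35 to 0.35. *Fos*, *Jun* and *Egr3* are filled, and the intervals of *Fos* and *Jun* lie wholly beyond 1.5-fold.

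Libraries differed across many of these genes at once. Replicate 3 was the highest cKO library for 9 of the 10 genes and the highest control library for 7 of the 10. Control replicate 1 was the lowest control library for 8. Between libraries with and between libraries without *Xist*, the log2 differences of the genes not yet given were 0.24 and 0.092 for *Junb*, −0.25 and −0.26 for *Jund*, 0.32 and 0.26 for *Batf*, −0.56 and −0.30 for *Egr1*, and −0.020 and −0.086 for *Egr2*. Summed CPM of 10 heat shock and handling genes ranged from 7219 to 8312 in cKO and from 7301 to 7932 in control libraries, although 6 of the 10 were called higher in cKO and 0 were called lower. Summed CPM of 16 fibroblast markers, a sign of feeder RNA, was 103 to 120 in cKO and 70.8 to 133 in control libraries, lowest in control replicate 3, with *Postn* at 0 throughout. Of the 14 fibroblast markers tested, 2 were called higher in cKO (*Fn1*, 40.3 and 19.2 CPM, and *Col5a1*, 5.39 and 1.77 CPM in cKO and control) and 2 lower (*Thbs1* and *Lox*). With the fibroblast level as a covariate, the log2 fold change was 1.84 for *Fos*, 1.04 for *Jun* and −0.96 for *Egr3*. Of the 6 myeloid markers, *Cd14* and *S100a8* were at 0 and the sum was 4.08 to 6.06 CPM in cKO and 1.22 to 2.45 CPM in control. *Adgre1* was the largest part of it (means of 4.61 and 1.18 CPM), while *Itgam* had 0.180 and 0.385 CPM. Of the 6 T cell markers, *Cd3e* was at 0 and the sum was 23.3 to 25.7 CPM in cKO and 36.5 to 39.7 CPM in control, nearly all from *Lck*. The 5 plasma cell markers summed to 157 to 176 CPM in cKO and 380 to 480 CPM in control libraries, mostly from *Xbp1* and *Jchain*, whereas *Sdc1* of the same list was higher in cKO (14.2 and 4.70 CPM, log2 fold change 1.60, adjusted p = 2.06e-05). Summed levels were lower in cKO for the 5 germinal center B cell markers, at 261 to 274 against 305 to 356 CPM, and for the 8 B cell markers, at 11200 to 11450 against 14410 to 15400 CPM. The part of heat shock genes, plasma cells and other B cell states in the values of *Fos*, *Jun* and *Egr3* was not tested, and in bulk RNA a change in the share of cells that express a gene and a change in RNA per cell cannot be told apart.

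The balance within each family was compared inside each library, as the difference of log2 CPM between family members. Gene length cancels when such a difference is compared between groups, but its sign in a library does not say which gene had more mRNA. The difference *Fos* minus *Fosb* was −0.70 ± 0.34 in cKO and −2.20 ± 0.23 in control (SD, n = 3 each). *Jun* minus *Jund* was −1.38 ± 0.027 in cKO and −2.83 ± 0.36 in control, and *Jun* minus *Junb* was −1.08 ± 0.18 in cKO and −2.10 ± 0.37 in control. *Fos* minus *Jun* was 0.27 ± 0.36 in cKO and −0.51 ± 0.19 in control, without overlap. *Egr2* minus *Egr3* was 2.45 ± 0.076 in cKO and 1.67 ± 0.26 in control, a wider gap in cKO. Over 9 such differences the groups did not overlap, and each had p = 0.1 (adjusted p = 0.1) in an exact two-sided permutation test, the smallest p possible. Most of them contain *Fos*, *Jun* or *Egr3* and so restate the changes of those genes, and 1 of the 9 was chosen after its values were seen. How often other gene pairs fail to overlap was not computed. Of the 9 shifts between groups the smallest was −0.38, for *Egr1* minus *Egr2*.

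Levels of different genes can be set side by side only per length, as CPM per kilobase of the GENCODE transcript. On that scale, the order in control iGCBs was *Jund* (589 ± 11.9), *Egr1* (378 ± 27.1), *Junb* (330 ± 47.0), *Egr2* (197 ± 21.9), *Nr4a1* (133 ± 36.6), *Fosb* (121 ± 40.5), *Egr3* (59.4 ± 18.0), *Fos* (46.3 ± 7.72), *Jun* (44.3 ± 12.2) and *Batf* (40.5 ± 3.20 CPM per kilobase; SD, n = 3 each). Libraries overlapped between *Egr1* and *Junb*, between *Nr4a1* and *Fosb*, and between each neighboring pair from *Egr3* down to *Batf*, so these places do not differ beyond their spread. In cKO iGCBs, *Fos* moved from the 8th to the 5th place with 186 ± 51.5 CPM per kilobase, where it overlapped with *Egr2* (200 ± 28.1) above it and *Fosb* (166 ± 19.9) below it. *Egr3* moved from the 7th to the 10th place with 30.6 ± 2.66 CPM per kilobase, below *Batf* (48.1 ± 3.80) in every library. *Jun*, at 99.8 ± 1.38 CPM per kilobase in cKO, stood between *Nr4a1* (156 ± 22.4) and *Batf* and overlapped with neither.

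Per kilobase, *Fos* made up 46.4%, 52.8% and 58.0% of the *Fos* and *Fosb* mRNA in cKO replicates 1, 2 and 3, where controls had 30.6%, 29.3% and 24.6%. The cKO shares were all higher. The sum of *Fos* and *Fosb* was 353 ± 63.1 CPM per kilobase in cKO and 168 ± 48.2 in control (exact permutation p = 0.1). *Jun* made up 10.3 ± 0.596% of the JUN family mRNA in cKO and 4.58 ± 1.11% in control, while the sum of *Jun*, *Junb* and *Jund* was 971 ± 68.3 and 964 ± 63.7 CPM per kilobase (exact permutation p = 0.9). The *Jund* length is uncertain: the GENCODE transcript has 1668 bases and the RefSeq gene spans 2878. With the longer length, which was chosen after seeing the data, *Jun* made up 13.1 ± 0.906% in cKO and 6.16 ± 1.46% in control, and *Jund* itself was at 288 ± 9.33 and 341 ± 6.93 CPM per kilobase, no longer the highest of the 10. *Egr3* was 5.86 ± 0.616% of the EGR mRNA in cKO and 9.25 ± 1.96% in control.

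**Figure D3:**
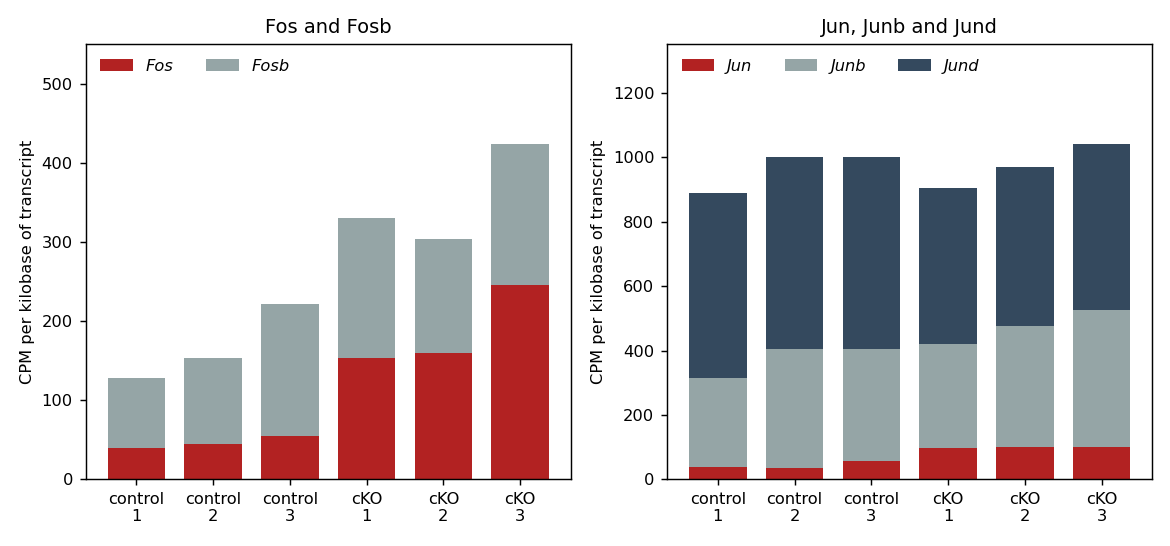
CPM per kilobase of transcript of *Fos* and *Fosb* (left) and of *Jun*, *Junb* and *Jund* (right), stacked, in each of the 3 control and 3 cKO libraries, with GENCODE lengths. The *Fos* part of the bar grew from 39.2 to 54.5 in control to 153 to 246 CPM per kilobase in cKO libraries, while the JUN family bars kept nearly the same height.

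Estimated transcript counts divided the change of *Egr3* unevenly. Transcripts of a gene share reads, so these counts and shares are estimates. *Egr3* has 3 RefSeq transcripts in the table, and the main one, NM_018781, has 2 exons and a coding length of 1161 bases. A shorter one, NM_001289925, matched a GENCODE transcript of 3 exons and a coding length of 1047 bases at chr14:70077203-70079955 on the plus strand of GRCm38. NM_001289925 was at 7.86 ± 2.09 CPM in cKO against 28.5 ± 9.39 CPM in control, with a log2 fold change of −1.86 (SE 0.308, adjusted p = 0.00879 over 18040 tested transcripts). It made up 7.35 ± 2.16% of the *Egr3* counts in cKO and 15.0 ± 0.517% in control, without overlap (exact permutation p = 0.1), and NM_018781 made up 92.3 ± 1.97% in cKO and 84.6 ± 0.417% in control. NM_018781 had 99.8 ± 11.3 and 159 ± 46.2 CPM, a log2 fold change of −0.67 (adjusted p = 0.0743), which was −0.85 (adjusted p = 0.0353) without control replicate 1. *Fos*, *Fosb*, *Jun*, *Junb*, *Egr1*, *Egr2*, *Nr4a1* and *Batf* have a single transcript in the table, so isoforms such as ΔFosB could not be told apart. *Jund* has 2, and the share of NM_001286944 was 9.80% in control replicate 2 and 42.9% to 47.1% in the other 5 libraries. Both *Jund* transcripts match the same GENCODE transcript, so this split is an estimate among shared reads.

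Stretches of promoter are shown for *Fos*, *Jun* and *Batf*, the members higher by adjusted p, and for *Egr2*, whose level was nearly equal. Promoter sequences are from RefSeq on GRCm38.p6, from 250 bases before to 50 bases after each transcription start, and were matched for 8 of the 10 genes. *Fos* (chr12:85473890-85477273, plus strand) and *Batf* (chr12:85686669-85709087, plus strand) lie 209396 bases apart, and *Jun* lies at chr4:95049034-95052222 on the minus strand. Each sequence below is written 5′ to 3′ on the strand of its gene, with the matched letters in capitals.
*Jun*, chr4:95052249-95052278, minus strand: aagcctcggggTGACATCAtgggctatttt
*Fos*, chr12:85473812-85473841, plus strand: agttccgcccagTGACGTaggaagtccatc
*Fos*, chr12:85473845-85473874, plus strand: tcacagcgcttcTATAAAggcgccagctga
*Batf*, chr12:85686610-85686639, plus strand: tttctaacttgtTGACGTttccgcccatgt
*Egr2*, chr10:67537787-67537816, plus strand: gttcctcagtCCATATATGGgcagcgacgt

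TGACATCA, the AP-1 and ATF variant in the *Jun* promoter, was centered 41 bases upstream of the start and occurs in 3.62% of 32851 promoters on either strand. TGACGT, the core of the cAMP response element, was centered 63 bases upstream in *Fos*, 95 bases upstream in *Batf* and, on the other strand, 53 bases upstream of a start of *Egr2*. It occurs in 7.51% of promoters, which include those with the full element TGACGTCA (1.79%). TATAAA was centered 30 bases upstream in *Fos* and 3 bases after the start in *Junb* and occurs in 13.6% of promoters. The CArG box, the letters bound by SRF, was in the *Egr2* stretch shown, 67 bases upstream of a start of that gene. RefSeq gives 5 promoter windows for *Egr2*, of which 3 overlap and hold this match and 1 holds a different CArG match. The CArG box occurs in 1.63% of promoters. TGANTCA (7.81% of promoters), TGACGTCA and the EGR motif GCGTGGGCG (0.612%) were not found in the windows of the 8 matched genes, and *Fosb*, *Jund* and *Nr4a1* held none of the motifs searched. These are matches of letters only, and sequence beyond these windows was not searched. No promoter was matched for *Egr1* or *Egr3*, so neither gene was searched.

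The genes that act with or on these factors were read in the same fit, as 95 genes in 5 lists of which 93 were tested. Of these, 10 were higher and 22 were lower past both cutoffs, with a median log2 fold change of −0.14. The background was 10.4% higher and 10.6% lower over all tested genes, and the difference from it was not tested. *Dusp1*, *Dusp2*, *Dusp5* and *Zfp36* stood in 2 lists each.

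Among 11 tested genes of the other AP-1 and bZIP partners, 0 were called higher and 3 lower, with a median of −0.31. *Jdp2*, which encodes a JUN dimerization partner that represses AP-1 sites, had 1.59, 1.36 and 0.778 CPM in cKO and 10.2, 7.02 and 7.65 CPM in control libraries. The log2 fold change of *Jdp2* was −2.74 (adjusted p = 2.55e-05), and the groups did not overlap. *Fosl1*, which encodes the FOS relative FRA1, fell from 6.13 ± 1.90 to 2.42 ± 0.289 CPM (log2 fold change −1.34; adjusted p = 0.00113). *Maff*, a small MAF gene without a transactivation domain, fell from 26.4 ± 3.39 to 17.6 ± 1.24 CPM (log2 fold change −0.59, adjusted p = 0.00174). This value lies at the 1.5-fold cutoff, and this list had 2 lower calls rather than 3 in 7 of 15 alternative fits.

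The 27 other immediate early genes moved in both directions, with 6 called higher, 7 lower and a median of −0.25. *Nr4a2*, a close relative of *Nr4a1*, had 19.1, 27.2 and 31.0 CPM in cKO where controls had 5.41, 5.70 and 8.50 CPM, and all cKO libraries were above all control libraries. The log2 fold change of *Nr4a2* was 1.98 (adjusted p = 4.24e-05), and the log2 difference of *Nr4a2* minus *Nr4a1*, a pair chosen after its values were seen, was −3.92 ± 0.18 in cKO and −5.63 ± 0.21 in control. *Klf10*, a TGF-β inducible repressor, fell by 1.56 on the log2 scale from 53.9 ± 8.09 to 18.3 ± 0.382 CPM. *Rgs1*, a regulator of G protein signaling, fell from 80.3 ± 26.1 to 31.1 ± 7.12 CPM, and *Arc*, best known from neurons, fell from 5.05 ± 2.46 to 1.82 ± 0.692 CPM.

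Of 20 tested negative regulators, 1 was called higher and 7 lower, with a median of −0.13. *Nab2*, the co-repressor that binds EGR1 and EGR2 and is itself an EGR target, had 30.7, 29.4 and 29.2 CPM in cKO and 101, 105 and 111 CPM in control libraries. The log2 fold change of *Nab2* was −1.83 (adjusted p = 2.31e-07), with replicates of each group close together. *Spred2*, an inhibitor of RAS to RAF signaling, fell from 45.5 ± 7.83 to 16.4 ± 2.77 CPM. *Dusp5*, a nuclear phosphatase of ERK, fell from 307 ± 33.9 to 121 ± 11.0 CPM, and *Dusp2*, another nuclear MAP kinase phosphatase, from 373 ± 32.6 to 201 ± 46.5 CPM. The 1 higher gene, named after its values were seen, was *Dusp1*, with a log2 fold change of 0.72 (adjusted p = 0.000671). *Dusp1* was no longer called without cKO replicate 3.

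Among 29 kinases and factors upstream of these genes (MAP kinase, SRF and CREB inputs), 3 were called higher and 6 lower, with a median of 0.0098. *Map3k1*, an upstream kinase of the JNK branch, fell from 154 ± 21.3 to 81.9 ± 2.67 CPM, and *Map2k6*, a kinase of p38, from 29.8 ± 4.13 to 17.0 ± 2.19 CPM. *Elk4*, an ETS partner of SRF at CArG boxes, fell from 120 ± 7.64 to 68.5 ± 5.29 CPM, and *Rps6ka1*, the ERK effector kinase RSK1, from 133 ± 3.00 to 78.3 ± 3.51 CPM. By adjusted p alone 13 were higher and 11 lower, most of them under 1.5-fold, against 24.1% and 24.5% of all tested genes. Of 10 IRF and NFAT partners, 1 was called higher and 1 lower, with a median of −0.14. *Rcan1*, a calcineurin inhibitor induced by NFAT, rose from 7.77 ± 0.269 to 12.6 ± 0.236 CPM, and *Nfatc2*, a calcium-responsive NFAT factor, fell from 32.3 ± 1.83 to 19.5 ± 0.437 CPM. *Irf4*, a partner of BATF, was named after its values were seen and had a log2 fold change of 0.42 (adjusted p = 0.00282), under 1.5-fold. *Irf8*, also a BATF partner and also named after its values were seen, was lower in cKO. Its log2 fold change was −0.35 (adjusted p = 0.000298), under 1.5-fold too.

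**Figure D4:**
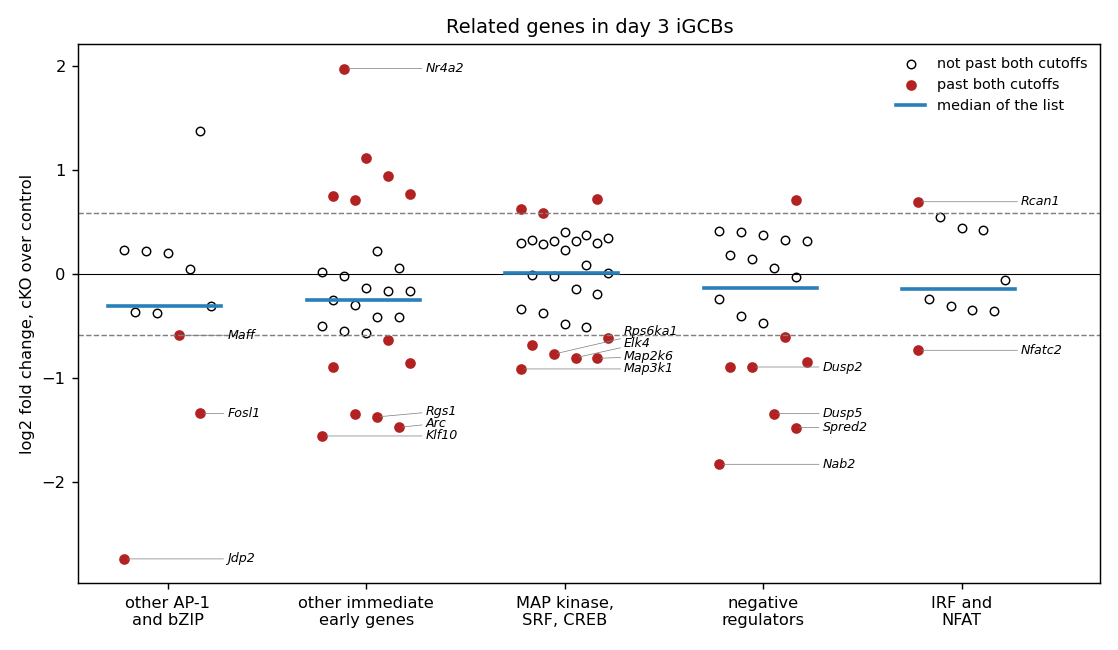
Log2 fold change of cKO over control for each tested gene of the 5 related lists (points), red where both cutoffs were passed, with the list median (blue bar) and 1.5-fold (dashed). Up to 4 called genes per list are labeled. Calls lie below zero for all 3 called genes of the other AP-1 list and for 7 of 8 called negative regulators, and on both sides in the other lists.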

How the data were processed

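Trimmed reads were aligned by the authors with HISAT2, quantified with StringTie and exported with StringTie's prepDE script as unnormalized estimated counts for genes and for RefSeq transcripts. The deposited estimated counts were whole numbers, so rounding changed nothing. The build was mm10 per the submitters' processing notes. Tool versions, strand setting and the read length given to prepDE are not given in the sources used here, so reads of *Jun*, *Jund* and *Junb* could not be separated from the opposite-strand genes that overlap them, and the scale of the counts is uncertain. Replicates were samples from separate mice.

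Counts were analyzed in R 4.3.3 with edgeR 4.0.16 (filterByExpr with a minimum count of 10, TMM, glmQLFit and glmQLFTest of cKO against control without covariates, Benjamini-Hochberg over all tested genes). Standard errors are the absolute log2 fold change over the square root of F, and 95% intervals use the moderated degrees of freedom. A floor of 3 counts was 0.0659 to 0.0768 CPM, for counting error only. DESeq2 1.42.0 was an alternative test. The fits were tested on simulated data, where the transcript fit had low power, so a transcript that misses the threshold is not shown to be unchanged. Other alternatives were DESeq2's size factors, total counts, filters on low counts, counts divided by 2, covariates, a replicate block, each library left out, no fold cutoff and a test against 1.5-fold.

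The members and lists were chosen with earlier results of these data known. Named genes are the members, *Eif3e*, markers, and up to 4 called genes with the largest change per related list. *Dusp1*, *Irf4* and *Irf8*, outside that rule, were chosen after their values were seen. Gene positions are GENCODE M21 on GRCm38, matched by symbol. Same-numbered cKO and control libraries were checked for shared deviations, with correlations of 0.0085, 0.084 and 0.13, and were not treated as pairs. Correlations of different-numbered libraries ran from −0.17 to 0.10.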

Additional observations from a re-analysis of the deposited data

How the results depend on the processing

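*Fos* and *Jun* kept their direction and passed both cutoffs under all 15 alternative fits and against 1.5-fold. The lower call of *Egr3* ended without control replicate 3, so between 0 and 1 members were called lower as libraries were left out in turn; it was 3 without the fold cutoff and 0 in the test against 1.5-fold. *Fosb* was called without control replicate 3 only. *Egr2* turned to −0.054 with *Xist* as a covariate, −0.078 with fibroblast markers as a covariate, −0.101 without cKO replicate 3 and −0.0548 without control replicate 1, with a leave-one-out maximum of 0.108, and its transcript to −0.104 and −0.0546 in those same left-out fits, with a maximum of 0.110. The *Jund* transcript NM_001286944 turned to −0.246 without control replicate 2 and was at most 0.502 with another library left out. Without the fold cutoff, 3204 genes were higher and 3264 lower, and 584 and 580 in the test against 1.5-fold. Under these rules, in that order, calls were 1 higher for the other AP-1 list without the cutoff; 3 higher in the test and 11 and 4 lower for other immediate early genes; 13 and 0 higher and 11 and 3 lower for MAP kinase inputs; 6 and 0 higher for negative regulators; and 4 and 0 higher and 5 and 0 lower for IRF and NFAT partners. With each library left out, negative regulators called higher ranged from 0 to 1 and IRF and NFAT partners from 1 to 2. With the replicate number as a block, members called were unchanged at 2 higher and 1 lower, all genes were 1337 higher and 1398 lower, and the *Egr3* transcript NM_001289925 had a log2 fold change of −1.84 (−1.86 without the block) with an adjusted p of 0.0551. By adjusted p alone, the block also brought *Fosb* (0.0178), *Junb* (0.0347) and *Nr4a1* (0.0278) under 0.05. The numbers are not known to pair mice. Leaving out immunoglobulin genes was planned and not run, since no gene of the table was matched as an immunoglobulin chain by its symbol. The cause of these changes was not tested. Depth was not the limit for any of the 10 genes, whose counts were at least 1511 in every library.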
